A study of Mus musculus with 3 samples.

Results

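Conventional type 1 dendritic cells (cDC1) were examined among live CD45+ cells sorted from MYC-driven liver tumours of mice and profiled by droplet single-cell RNA sequencing. Their members were chosen by measured values: a cell was kept if Xcr1 and Clec9a together gave at least 2 unique molecular identifiers (UMIs, each standing for 1 captured transcript). The same cell could hold no more than 2 UMIs of the mature dendritic cell genes Fscn1, Ccr7 and Ccl22, 1 of Siglech, 2 of C1qa, C1qb and C1qc, and none of Cd3e or Cd79a. This rule took 588 of the 36386 cells that had at least 200 detected genes and at most 10% mitochondrial UMIs. The levels of those 11 genes in the chosen cells are therefore a description and not a finding.

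All 3 libraries came from C57BL6 mice labelled MYC-ON at 18 weeks of age, and each group is 1 library. The groups are a control, which the cell data name DMSO and the label names CONTROL, mice treated with DU101, and mice treated with DU102. What DU101 and DU102 are, their doses, the promoter that drives MYC, and the number and sex of the mice behind the libraries are unstated in the labels and files used here. Because a group is 1 library, differences between groups lack a replicate check and no p-value is given. Intervals are 95% exact intervals of counting error only.

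cDC1 are the dendritic cells that depend on the transcription factors Irf8 and Batf3. They take up dead cells, in part through the receptor Clec9a, move the ingested antigen onto MHC class I molecules and so prime CD8 T cells, a route called cross-presentation. The chemokine receptor Xcr1 draws them to T cells and NK cells, and the chemokines Cxcl9 and Cxcl10 that they can make attract T cells that carry Cxcr3.

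The control gave 172 cDC1, the DU101 library 276 and the DU102 library 140. The median cDC1 carried 17147 UMIs in the control, 15251 in DU101 and 16048 in DU102, and the median numbers of detected genes were 3371, 2888 and 3213.5. No cDC1 barcode of one library was also a cDC1 barcode of another, although the libraries shared 37 to 57 barcodes in pairs over all cells. Of the cells that passed the Xcr1 and Clec9a threshold, the exclusions removed 35.1% in the control, 33.5% in DU101 and 35.2% in DU102, most often for Siglech.

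The chosen cells carried the cDC1 genes that the rule had not used. Levels are CPM, counts per 1000000 of the summed UMIs of all cDC1 of a library. Wdfy4, required for cross-presentation, stood at 373 CPM in the control, 301 in DU101 and 408 in DU102. In the T cell gate it stood at 2.57, 5.30 and 4.54 CPM. Naaa, a lysosomal amidase, was at 1172, 874 and 1040 CPM, and at 97.3, 75.9 and 93.7 in the gate of type 2 conventional dendritic cells (cDC2). Both genes were higher in the cDC1 gate than in the other 5 gates of every library. Cadm1, an adhesion molecule used to mark cDC1, was less particular: it was at 119, 122 and 185 CPM in cDC1 and at 131, 58.1 and 166 in macrophages. The level of Irf8 was 1416, 1419 and 1623 CPM, below the 2802, 2571 and 2693 CPM of plasmacytoid dendritic cells (pDC). Batf3 was at 221, 235 and 194 CPM, and in the mature (migratory) dendritic cells at 111, 175 and 97.9. The cells carried the markers of their label, with Cadm1 and Irf8 shared with other cells.

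The genes with the highest ratio of cDC1 over the next of the 5 other gates, in every library, began with the gate gene Xcr1, at 16.4-fold in the control, 17.2-fold in DU101 and 15.2-fold in DU102. Tlr3, a sensor of double-stranded RNA, followed at 14.4-, 12.7- and 17.2-fold. Snx22, a sorting nexin, stood at 12.0-, 12.5- and 13.1-fold, and Naaa at 12.0-, 11.5- and 11.1-fold. Further genes of this group were Gcsam, Clec9a, Gpr141b, Itgae, Sept3, Ppt1, Hepacam2, Fam149a, Ffar4, Rtl8b and Ifi205. The clustering of cells played no part in these ratios, but the cells were chosen on Xcr1 and Clec9a, so the ratios describe the gate.

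**Figure D1:**
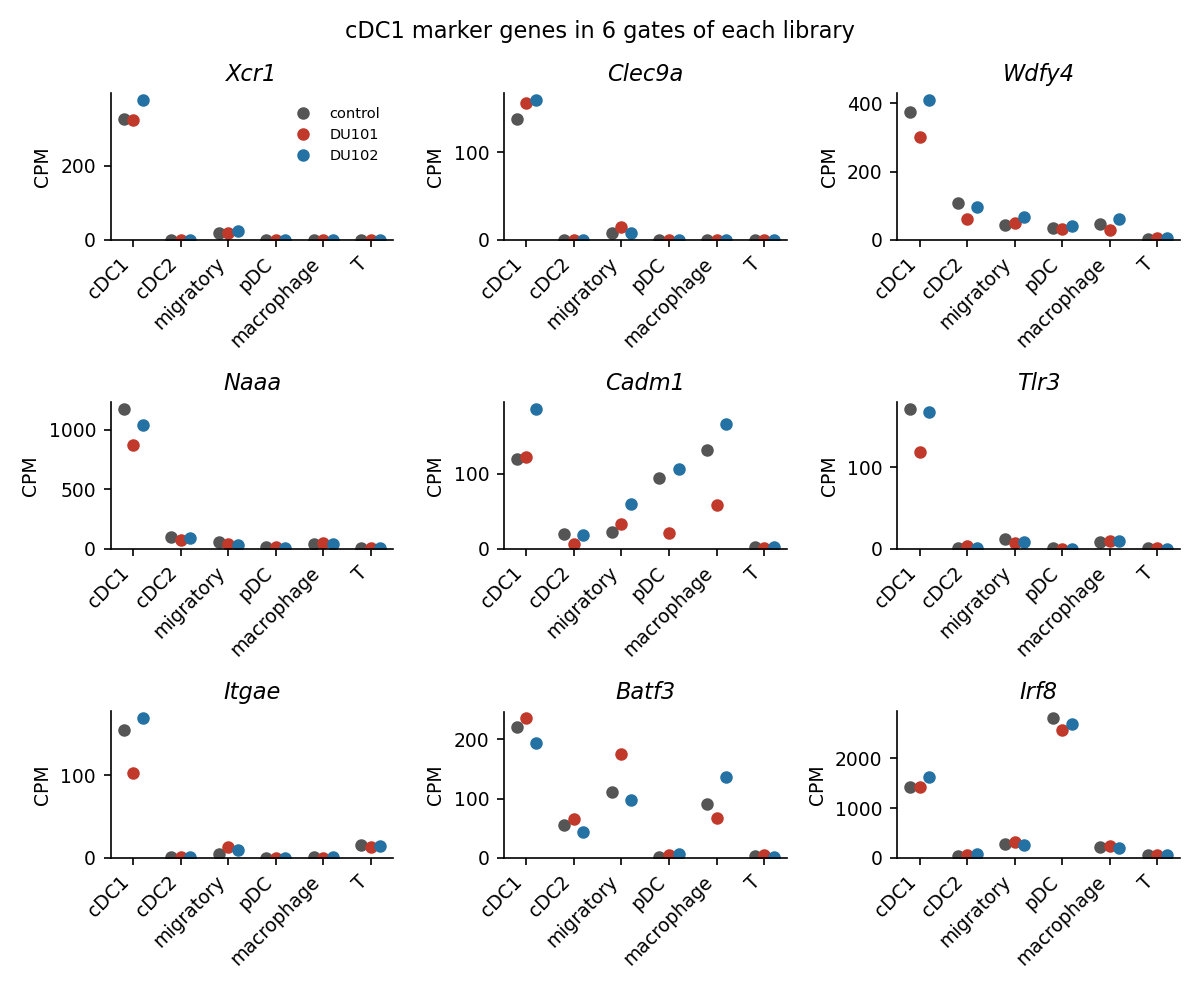
Level of 9 cDC1 genes in the 6 gates, in CPM of summed UMIs, with 1 point per library. Tlr3 and Naaa were highest in the cDC1 gate of all 3 libraries, while Cadm1 was shared with macrophages and Irf8 with pDC.

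Both gate genes were present in 141 of the 172 control cDC1, 210 of 276 in DU101 and 118 of 140 in DU102. The cells that entered through Clec9a alone, 10, 25 and 8 of them, carried less of some cDC1 genes. Their Naaa was at 411, 539 and 729 CPM, against 1211, 920 and 1070 in cells with both gate genes. Their Itgae, the integrin chain CD103, was at 6.85, 17.9 and 9.0 CPM, against 167, 118 and 180 CPM. Batf3 was not lower in the control and DU101, at 219 and 257 CPM against 211 and 233. In the 25 such cells of DU101, Cd209a, a cDC2 gene, was at 118 CPM. Just inside the threshold, cells with 2 gate UMIs, 19 in the control, 45 in DU101 and 12 in DU102, had Naaa at 755, 559 and 882 CPM. Just outside it, cells with 1 gate UMI, 50, 98 and 44 of them, had Naaa at 258, 276 and 187 CPM.

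The libraries stood apart in ways that touch the cDC1. The control library held cells of both sexes: 138 of its 172 cDC1 had RNA of Xist, the transcript of the inactive X chromosome, and none from the Y-linked genes, 21 had Y-linked RNA and no Xist, 7 had both and 6 neither. In DU101 183 cDC1 had Y-linked RNA alone, 2 had Xist alone and 91 neither, and in DU102 113 had Y-linked RNA alone and 27 neither. The only control cells of like sex RNA to set beside the treated ones are therefore the 21 with Y-linked RNA alone, which hold 324970 UMIs. Cells of the 2 sexes come from different mice, whose number is unstated. Sex and individual mouse thus cannot be told apart within the control, here or where it is divided by sex RNA below. Values against those 21 control cells are given beside several results, and rest on few control UMIs for the less abundant genes. Neutrophil RNA also differed: the 9 neutrophil genes summed to 257 CPM in control cDC1, 8848 in DU101 and 10581 in DU102. RNA of other types was carried by 22 control, 37 DU101 and 9 DU102 cDC1, which held 56.0%, 94.8% and 92.1% of this neutrophil RNA. They were chosen by thresholds that include at least 100 UMIs of these 9 genes, so these shares follow in part from the choice. The median cDC1 had 34.1, 183 and 301 CPM of the neutrophil gene S100a8. In the T cell gate the same sum was 4915, 14862 and 27694 CPM. B cell genes summed to 221, 1307 and 241 CPM and macrophage genes to 302, 137 and 162 CPM in cDC1. The T cell list was at 18.5, 45.5 and 11.9 CPM, the cDC2 list at 38.5, 50.7 and 16.5, the NK list at 150, 142 and 133, the monocyte list at 1468, 1461 and 1525 the pDC list at 281, 343 and 255 and the hepatocyte list at 404, 153 and 214. Of the defining B cell genes 3 of 8 were at 0 in the control and 2 in DU101. The part of this foreign RNA in the results was not tested, except where a value without the cells that carried it is given.

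The share of cDC1 among all filtered cells was 1.65% in the control (1.41 to 1.91), 1.94% in DU101 (1.72 to 2.18) and 1.20% in DU102 (1.01 to 1.41, Clopper-Pearson). DU101 over control was 1.17-fold, with an interval of 0.966 to 1.43 that holds 1. DU102 over control was 0.724-fold (0.575 to 0.911), and DU102 over DU101 was 0.618-fold (0.50 to 0.760). The order changed with the denominator. Among the 3 conventional dendritic gates (cDC1, cDC2 and migratory), cDC1 made up 38.4% in the control, 50.6% in DU101 and 51.5% in DU102. There DU102 over control was 1.34-fold (1.06 to 1.69) and DU102 over DU101 1.02-fold (0.823 to 1.25). The cDC2 gate moved as well, from 1.52% of all filtered cells in the control to 0.582% in DU101 and 0.572% in DU102. Over all filtered cells the neutrophil genes summed to 18587, 59677 and 98594 CPM and the B cell genes to 4432, 34789 and 5732, and their part in the cDC1 shares was not tested.

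Within the control library the cDC1 share itself differed by sex RNA. It was 2.49% of the 5548 cells with Xist alone (2.09 to 2.93) and 1.13% of the 1861 cells with Y-linked RNA alone (0.70 to 1.72), 2.20-fold lower in the latter. Median UMIs of those 2 sets of cells were 7560 and 7936. Of cells with Y-linked RNA alone, cDC1 were 2.71% in DU101 (183 of 6764) and 1.83% in DU102 (113 of 6186). Compared on such cells, DU101 over control was 2.40-fold and DU102 over control 1.62-fold. The lower share of DU102 against the whole control thus became a higher share against the control cells with Y-linked RNA.

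**Figure D2:**
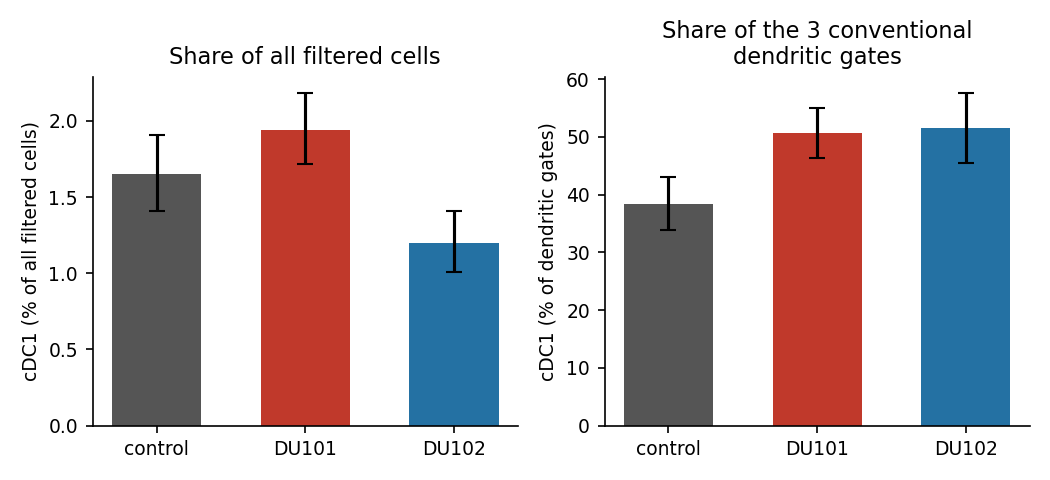
Share of cDC1 in each library, in percent, among all filtered cells (left) and among the 3 conventional dendritic gates (right), with 95% Clopper-Pearson intervals. DU102 is lowest at 1.20% of all cells and level with DU101 among dendritic cells, at 51.5% and 50.6%.

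For gene levels, a gene was measured in a comparison if it had at least 30 UMIs over both libraries. It was counted as higher or lower by size if its CPM differed by at least 1.5-fold and the counting interval of the ratio lay on that side of 1. This is a rule of size and not a test of the treatments. In DU101 over control 201 of 8947 measured genes were higher and 738 lower, with a median log2 ratio of -0.12. In DU102 over control 198 of 8402 were higher and 440 lower, median -0.05. In DU102 over DU101 529 of 8570 were higher and 291 lower, median 0.07. Any pair of these comparisons shares a library, so their counts are not independent.

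Genes of the type I interferon response were higher in the DU101 cDC1. Of 29 measured members of a 33-gene list, 12 were higher by size and 0 lower than in the control, with a median log2 ratio of 0.51, where 2.25% of all measured genes were higher and 8.25% lower. Against the control, DU102 had 2 of 22 members higher and 0 lower, with a median of 0.01, where 2.36% of all measured genes were higher and 5.24% lower. From DU102 to DU101 the list gave 0 higher and 13 of 28 lower in DU102, median -0.61, where 6.17% of all measured genes were higher and 3.40% lower. Counted on cells with Y-linked RNA alone, DU101 over control had 6 members higher, and DU102 over DU101 had 13 lower. The latter count was 4 without dividing cells, 6 on a gate set after thinning each cell to 2000 UMIs, and 7 without the 3% of cells with most UMIs of each gene. How many genes were measured in these settings is not given, so these counts have no share beside them. On cells with Y-linked RNA alone 563 genes in all were higher in DU101 over control, against 201 on all cDC1. The 6 members are therefore not read as a retained difference.

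Isg15, an interferon-induced ubiquitin-like modifier, was at 105 CPM in the control, 219 in DU101 and 77.0 in DU102. DU101 was 2.09-fold over the control (log2 1.06, 0.88 to 1.25), and DU102 was 2.84-fold lower than DU101. The high level of Isg15 in DU101 was not particular to cDC1, as DU101 was the highest library in each of the other 5 gates. Isg15 was at 155, 244 and 164 CPM in cDC2 and at 187, 399 and 198 in macrophages. Its RNA was found in 36.0%, 49.6% and 44.3% of cDC1, and after thinning every cell to 2000 UMIs in 12.2%, 20.3% and 17.1%. In the T cell gate, which also expresses it, 25.7%, 33.6% and 25.7% of cells had an Isg15 UMI at median depths of 6066, 4346 and 5033 UMIs, and after thinning 14.7%, 21.7% and 13.7%. The thinned shares of cDC1 were not above these in the control or DU101, so nothing is read from the share of cells with Isg15. In control cells with Xist alone and with Y-linked RNA alone Isg15 was at 121 and 52.3 CPM, and in DU101 and DU102 cells with Y-linked RNA alone at 225 and 86.8. Irf7, the transcription factor that amplifies interferon production, followed the same order with 87.6, 158 and 89.0 CPM. Usp18, the protease that removes Isg15, was at 26.6, 54.6 and 28.8 CPM. Rsad2, the antiviral enzyme viperin, was at 7.82 CPM in the control, 31.1 in DU101 and 11.1 in DU102. Oasl1, of the oligoadenylate synthetase family, was at 5.63, 32.0 and 4.53 CPM. For these 5 genes DU101 was the highest of the 3 libraries and DU102 lay within 1.5-fold of the whole control. On cells with Y-linked RNA alone DU102 over control was 1.66-fold for Isg15 (1.01 to 2.91) and 0.265-fold for Oasl1 (0.0874 to 0.889), with the 6 control UMIs of Oasl1 in 1 cell.

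The list did not act as one. Ifi27l2a, an interferon-induced gene, was at 289, 557 and 523 CPM, so both treated libraries were above the control, by 0.94 and 0.85 on the log2 scale. The control cells with Y-linked RNA alone had 575 CPM of Ifi27l2a, 2.20-fold the 261 CPM of those with Xist alone, and against them DU101 was at -0.13 and DU102 at -0.35. Irf1, an interferon-induced transcription factor, did not differ by size from the control in either library, at 37.2, 44.9 and 51.1 CPM.

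The interferon-stimulated response element of interferon target promoters was looked for as the letters GAAANNGAAA, or TTTCNNTTTC on the other strand, from 250 bases before to 50 after the start of each gene (RefSeq promoters, GRCm38.p6). It was present in 3.44% of 32851 promoters and in 3.99% of 27025 genes. Of the type I interferon list 11 of 24 matched genes held it (45.8%), and of the interferon gamma list 11 of 17 (64.7%). Irf7, Oasl1, Cxcl9 and Serpina3g, also higher in DU101 than in the whole control, held no match. Shown are 3 members that differed in DU101, with the matched letters in capitals, each on the strand of its gene. The first is Isg15 at chr4:156200855-156200916 (minus strand), where 3 matches overlap, the second Rsad2 at chr12:26456543-26456592 (minus strand) and the third Cxcl10, of the interferon gamma list, at chr5:92349073-92349122 (minus strand).
Isg15: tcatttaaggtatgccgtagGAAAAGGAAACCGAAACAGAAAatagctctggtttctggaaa
Rsad2: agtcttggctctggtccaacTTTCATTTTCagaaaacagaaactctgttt
Cxcl10: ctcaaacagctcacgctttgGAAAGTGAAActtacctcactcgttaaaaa
A match describes the letters and not binding, and these data hold no measure of binding.

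Some genes induced by interferon gamma were higher in the DU101 cDC1. Of 21 measured members 7 were higher (33.3%) and 2 lower (9.52%) by size than in the control, where 2.25% of all measured genes were higher and 8.25% lower. Against the control, DU102 had 2 of 18 higher and 3 lower, and DU102 over DU101 had 0 higher and 6 of 18 lower. Of all measured genes 2.36% were higher and 5.24% lower in the former, and 6.17% and 3.40% in the latter. Cxcl9, the chemokine ligand of Cxcr3, was at 110 CPM in the control, 595 in DU101 and 105 in DU102. DU101 was 5.4-fold over the control (log2 2.43, 2.27 to 2.60), and DU102 was 0.951-fold of the control. The 21 control cells with Y-linked RNA alone held 5 Cxcl9 UMIs, found in only 4.76% of these cells. Against them DU101 cells of that kind were 41.6-fold (17.8 to 128) and DU102 cells 7.80-fold (3.30 to 24.3). These intervals do not hold the spread between cells, so no order of DU102 and such control cells is read from them. Cxcl9 RNA was in 14.5% of control, 29.0% of DU101 and 17.1% of DU102 cDC1, and after thinning in 6.98%, 17.0% and 9.29%. In the T cell gate it was in 0.528%, 1.65% and 0.303% of cells. The transcripts sat in few cells, the 5 highest holding 64.2% of them in the control, 47.2% in DU101 and 83.5% in DU102. Leaving out for each gene the 3% of cells with most UMIs, the log2 ratio of Cxcl9 was 2.58 for DU101 over control.

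Serpina3g, a serine protease inhibitor, was at 48.8, 131 and 24.3 CPM, highest in DU101 and lowest in DU102. In control cells with Y-linked RNA alone Serpina3g was at 114 CPM, so that DU101 cells of that kind, at 138 CPM, were 1.21-fold over them (0.863 to 1.74). Cxcl9 went the other way: control cells with Y-linked RNA alone had 15.4 CPM, and those with Xist alone had 131. Cxcl10, also a Cxcr3 ligand, was at 50, 123 and 77.5 CPM, but 5 cells held 81.9%, 67.1% and 94.1% of it, and without dividing cells DU101 over control was at -0.92. The interferon-induced genes Tap1 (144, 149 and 173 CPM) and Psmb9 (652, 683 and 724 CPM), of peptide loading and the immunoproteasome, were near level. Cd274, the checkpoint ligand PD-L1, was low everywhere, at 8.13, 2.71 and 3.71 CPM.

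**Figure D3:**
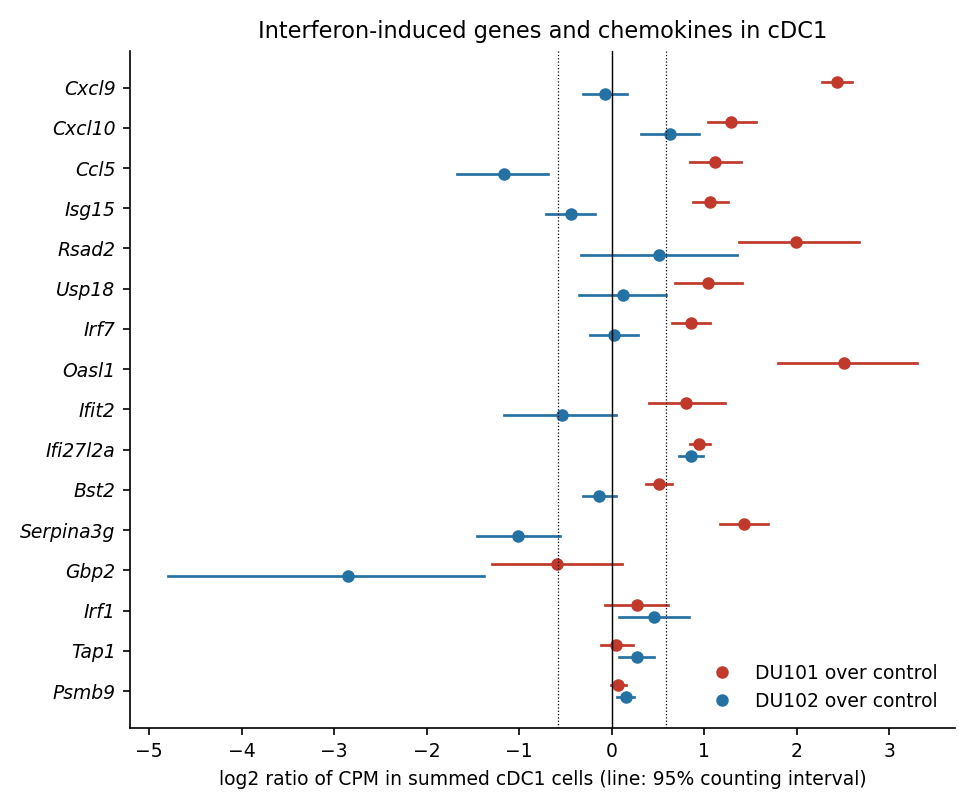
Log2 ratio of CPM in summed cDC1, DU101 over control (red) and DU102 over control (blue), for interferon-induced genes and chemokines; lines are 95% counting intervals and dotted lines mark 1.5-fold. Cxcl9 lies at 2.43 for DU101 and -0.07 for DU102 over the whole control, while Irf1, Tap1 and Psmb9 stay within 1.5-fold for both.

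Cytokines and chemokines were also higher in the DU101 cDC1. In DU101 over control 7 of 14 measured were higher and 1 lower, in DU102 over control 2 of 13 higher and 3 lower, and in DU102 over DU101 0 of 15 higher and 9 lower. Over all measured genes the shares were 2.25% and 8.25%, 2.36% and 5.24%, and 6.17% and 3.40%. Ccl4, a chemokine that attracts T cells and monocytes, was at 165 CPM in the control, 338 in DU101 and 142 in DU102, 2.05-fold over the control in DU101. Il1b, the inflammasome cytokine, was at 38.5, 105 and 84.5 CPM, above the control in both treated libraries by 1.45 and 1.13 on the log2 scale. Tnf was at 11.9, 18.3 and 8.65 CPM. Ccl5, a T cell chemoattractant that T cells also make, was at 44.4, 96.5 and 19.8 CPM, but in DU101 5 cells held 59.6% of its UMIs, and Ccl5 lost its direction in DU101 over control on the thinned gate (-0.71), as in DU102 over control on cells with Y-linked RNA alone (0.64). Ccl3, a related chemokine, was at 34.4, 47.8 and 18.1 CPM. Il27 came from 3 cells of DU101, at 7.44 CPM, and Ccl17, at 37.5, 23 and 4.94 CPM, had 87 of its 120 control UMIs in 1 cell. Il15 (6.88, 7.67 and 7.83 CPM), Il18 (36.9, 31.6 and 30.5) and Cxcl16 (121, 123 and 117) did not differ by size between libraries. Il12b, the subunit of interleukin 12 that cDC1 supply, was at 0.626, 6.09 and 1.65 CPM. These levels rest on 2, 27 and 4 UMIs, with 26 of the 27 in 5 cells of DU101, so no order is read from them.

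The machinery of antigen presentation was mostly level. None of 10 measured MHC class I genes differed by size between either treated library and the control. H2-K1 was at 714, 672 and 679 CPM, H2-D1 at 1435, 1226 and 1567, and B2m, the light chain, at 1351, 1472 and 1424. H2-T23, which encodes Qa-1, was at 160, 232 and 150 CPM and with H2-T22 (32.2, 41.9 and 23.5) was lower in DU102 than in DU101. Of 25 measured cross-presentation genes 2 were higher in DU101 than in the control, 2 in DU102, and 0 lower in either. Of all measured genes 2.25% were higher and 8.25% lower in DU101, and 2.36% and 5.24% in DU102. Cybb, the phagosomal NADPH oxidase chain, was at 27.5, 53.0 and 60.6 CPM, but without the exclusions, which let other cell types in, its log2 ratios were -0.57 and -0.05. Tapbpl, a peptide editor, was at 25.3, 43.3 and 34.2 CPM. Sec22b, a trafficking protein of the route, was at 25, 26.4 and 26.4 CPM.

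Of 13 measured co-stimulatory and checkpoint genes in DU101 over control, 1 was higher and 2 lower by size. In DU102 over control 0 of 12 were higher and 1 lower, and in DU102 over DU101 1 of 12 was higher and 2 lower. Over all measured genes the shares higher and lower were 2.25% and 8.25%, 2.36% and 5.24%, and 6.17% and 3.40%. Cd40, the receptor that receives help from CD4 T cells, was at 16.6, 25.3 and 9.48 CPM, 2.66-fold lower in DU102 than in DU101. Cd86 (98.2, 111 and 110 CPM) and Cd83 (101, 132 and 120) did not differ by size. Among 17 measured transcription factors 3 were lower in DU101 than in the control, namely Zeb2 (32.5, 16.0 and 16.9 CPM), Tcf4 (56.6, 36.5 and 44.1) and Notch2 (52.2, 32.0 and 49.0). Of all measured genes 8.25% were lower in that comparison. Both Zeb2 and Tcf4 act in other dendritic lineages. In the control 5 cells held 65.4% of the Zeb2 UMIs, and on cells with Y-linked RNA alone the log2 ratio of Zeb2 turned to 2.81 in DU101 and 2.52 in DU102. Without the cells that carried RNA of other types Tcf4 was at 0.04 and Zeb2, DU102 over control, at 0.08 on the log2 scale. Id2 was at 1080, 1165 and 1051 CPM and Mycl, the Myc relative of cDC1, at 55.4, 50.1 and 56.9.

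Some genes of cDC1 identity were higher in DU102 than in DU101. Of 26 measured, 6 were higher and 1 lower by size, with a median log2 ratio of 0.31, where 6.17% of all measured genes were higher and 3.40% lower. Against the control DU101 had 1 higher and 2 lower, and DU102 had 2 higher and 1 lower, with a median of 0.14 that became -0.22 on cells with Y-linked RNA alone. Of all measured genes 2.25% were higher and 8.25% lower in DU101 over control, and 2.36% and 5.24% in DU102 over control. Itgae was at 155 CPM in the control, 103 in DU101 and 169 in DU102, 1.63-fold higher in DU102 than in DU101. Flt3, the receptor for the growth factor of dendritic cells, was at 107, 76.7 and 121 CPM. Pianp, a membrane protein, stood at 39.4, 19.4 and 50.3 CPM, a difference of 2.59-fold between DU102 and DU101. This was not particular to cDC1, as Pianp was lowest in DU101 in each of the other 5 gates. It was at 13.8, 2.37 and 11.2 CPM in cDC2 and at 20.9, 4.95 and 14.1 in macrophages. Zbtb46, a factor of conventional dendritic cells, was at 39.1, 38.1 and 58.1 CPM. In all 4 genes DU101 was lowest. Cd8a, which marks lymphoid organ cDC1, was at 10.6, 28.6 and 28.8 CPM. Cd226, an activating receptor, was lowest in DU102, at 29.1, 20.7 and 9.06 CPM.

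H2-Eb1, a beta chain of MHC class II, was the exception in its family. Its level was 3060 CPM in the control, 5188 in DU101 and 2423 in DU102, 1.70-fold over the control in DU101 (log2 0.76, 0.73 to 0.80) and 2.14-fold lower in DU102 than in DU101. On cells with Y-linked RNA alone, H2-Eb1 in DU101 was 1.43-fold over the control (1.35 to 1.52), short of 1.5-fold, and in DU102 2.1-fold lower than in DU101. The other chains were near level, H2-Aa at 6403, 7079 and 6622 CPM, H2-Ab1 at 7696, 8563 and 8466, and the invariant chain Cd74 at 12970, 13985 and 14133. No other measured MHC class II gene of 11 differed by size between libraries.

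Single cells showed that DU102 was split. For each cDC1 with at least 20 H2-Aa UMIs, 167 in the control, 272 in DU101 and 138 in DU102, the log2 ratio of H2-Eb1 to H2-Aa UMIs was taken after adding 1 to each. In DU102 34 of 138 cells (24.6%, 17.7 to 32.7) lay below -4, 3 between -4 and -2, and 101 above. In the control 0 of 167 and in DU101 0 of 272 lay below -4, counts that allow up to 1.80% and 1.10%. The 34 cells had a median of 1 H2-Eb1 UMI and at most 5, against a median of 53 in the other 104, while their H2-Aa medians were 96 and 113. The cells of the control had a median ratio of -1.06, those of DU101 -0.48, and the other cells of DU102 -1.13. The split points were set after the values had been seen, and its cause was not tested.

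The same split ran through the other gates of DU102 and was not particular to cDC1. Below -4 lay 14 of 56 cDC2 (25%), 8 of 37 migratory cells (21.6%), 37 of 151 macrophages (24.5%) and 6 of 37 pDC (16.2%). In the control and in DU101 each of these gates had 0 or 1 such cell. In the DU102 cDC1, cells low in H2-Eb1 had Naaa at 722 CPM and the others at 1146. Cxcl9 was at 8.46 CPM in the low cells and 133 in the others, while Isg15 was at 117 and 63.0. The Cxcl9 gap rests on few cells, as 5 cells held 83.5% of its UMIs in the DU102 cDC1. Dividing cells made up 32.4% of the low cells and 51.9% of the others.

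**Figure D4:**
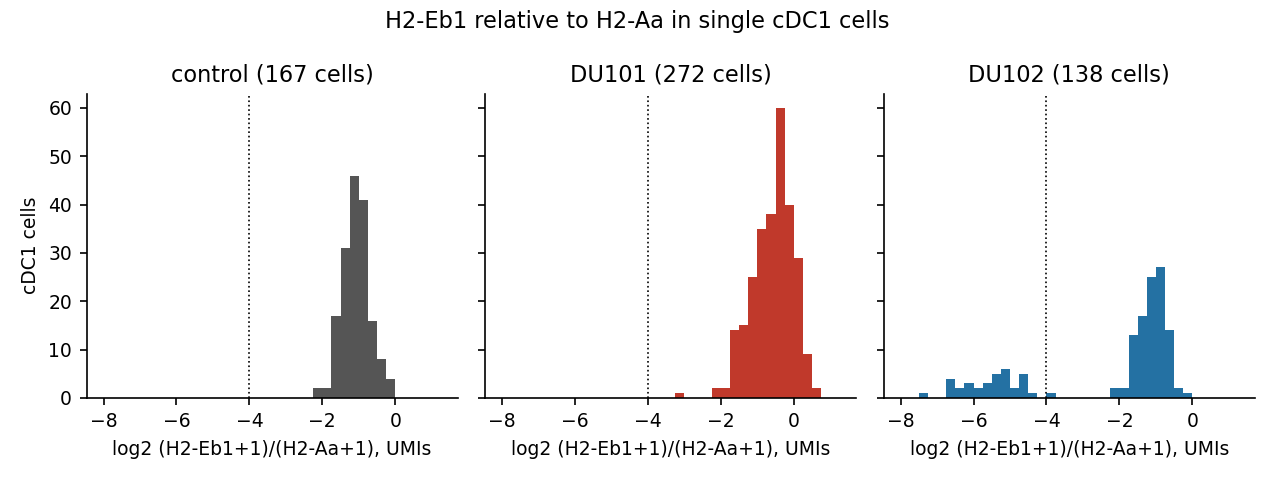
Log2 ratio of H2-Eb1 to H2-Aa UMIs (1 added to each) in single cDC1 with at least 20 H2-Aa UMIs, as a histogram of cells for each library; the dotted line marks -4. A separate group of 34 cells lies below -4 in DU102, and no cell lies there in the control or DU101.

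Several heat shock genes were lower in the DU102 cDC1. Of 23 measured members of the heat shock and immediate early list, 7 were lower by size than in the control and 0 higher (median -0.43), and 12 lower than in DU101 (median -0.63), where 5.24% and 3.40% of all measured genes were lower. Of the 7 lower than in the control 6 were chaperones, and on cells with Y-linked RNA alone 3 members were lower than in the control and the median was 0.11. The share of all genes lower in that setting is not given. The immediate early genes Egr1 (33.8, 40.8 and 37.5 CPM) and Btg2 (677, 640 and 688) did not differ by size. DU101 over control had 1 higher, Atf3 at 97.3, 201 and 69.2 CPM, and 0 lower, where 2.25% of all measured genes were higher and 8.25% lower. Hspa8, the constitutive heat shock protein 70, was at 3174 CPM in the control, 3116 in DU101 and 1687 in DU102, 1.88-fold lower in DU102 than in the control. Dnaja1, a co-chaperone, was at 762, 785 and 323 CPM, 2.36-fold lower. Hsp90aa1 was at 1064, 1086 and 562 CPM, Hspd1, the mitochondrial chaperonin, at 312, 307 and 161, Hsph1 at 174, 146 and 69.2 and Dnajb1 at 183, 168 and 85.3. For these genes DU101 lay with the control and DU102 stood alone. The lower level in DU102 was not particular to cDC1, as these genes were lowest in DU102 in each of the other 5 gates. Dnaja1, for one, was at 804, 789 and 365 CPM in cDC2 and at 788, 1028 and 527 in the T cell gate. Hspa1a, the stress-inducible heat shock protein 70, was at 587, 780 and 487 CPM, lower by size only against DU101 (1.60-fold).

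The control library was split by sex RNA for these genes. Hspa8 was at 3525 CPM in control cDC1 with Xist alone and at 1440 in those with Y-linked RNA alone, against 3063 in DU101 and 1703 in DU102 cells with Y-linked RNA alone. Dnaja1 was at 870, 218, 804 and 326 CPM in the same 4 sets, and Hsp90aa1 at 1200, 388, 1053 and 592. Against the control cells with Y-linked RNA alone, DU102 was no longer lower: Hspa8 was 1.18-fold (1.07 to 1.3) and Dnaja1 1.49-fold (1.17 to 1.93). On the log2 scale Hsp90aa1 was then at 0.61, Hspd1 at 0.47 and Hsph1 at 0.45. Dnajb1 kept its direction, with 190, 188, 176 and 89.2 CPM in the 4 sets. Against DU101, where both sets had Y-linked RNA alone, DU102 stayed lower, 1.80-fold for Hspa8 and 2.47-fold for Dnaja1. The gap within the control was not particular to cDC1: Hspa8 was at 2306 and 903 CPM in its pDC with Xist and with Y-linked RNA alone, at 2267 and 1015 in macrophages, and at 2511 and 1360 in T cells.

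**Figure D5:**
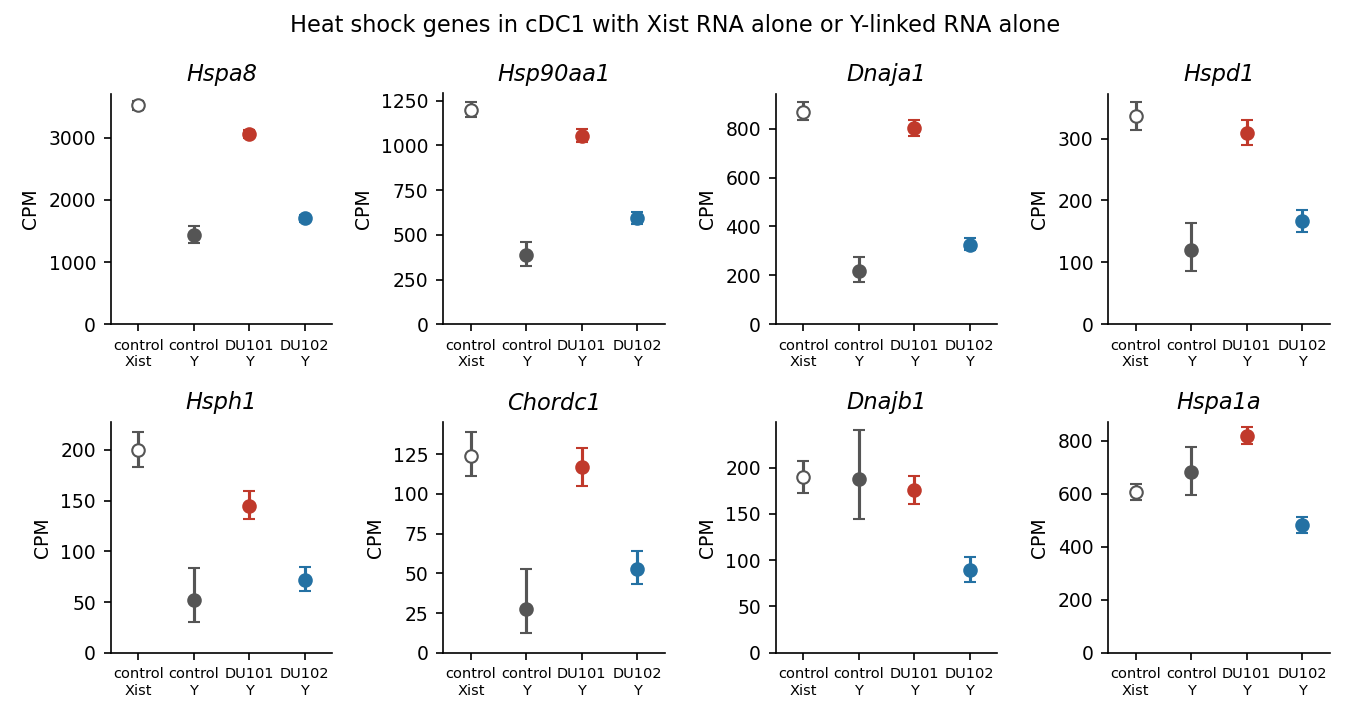
CPM of heat shock genes in cDC1, given for control cells with Xist alone (open) and for cells with Y-linked RNA alone of the control, DU101 and DU102 (filled), with 95% exact Poisson intervals of counting error. Control cells with Y-linked RNA alone lie below those with Xist alone for Hspa8, Dnaja1 and Hsp90aa1, and level with them for Dnajb1.

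The heat shock element of chaperone promoters was looked for as GAANNTTCNNGAA, or TTCNNGAANNTTC on the other strand, in the same windows. It was in 0.603% of promoters and 0.662% of genes, and in 3 of 18 matched genes of the heat shock and immediate early list (16.7%), Hspd1, Hspe1 and Hsph1. Hspa1a, Hspa1b, Dnaja1 and Dnajb1 held no match. Some list members, among them Hspa8 and Hsp90aa1, had no promoter in the set used and were not searched. Hspd1 and its partner Hspe1, at 866, 1005 and 618 CPM, start from a shared stretch on opposite strands. Shown is that stretch at chr1:55088039-55088096, on the minus strand as read for Hspd1, with 2 overlapping matches in capitals.
Hspd1: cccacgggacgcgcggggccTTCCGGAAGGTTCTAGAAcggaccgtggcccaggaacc

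Many cDC1 were dividing by RNA. With at least 3 UMIs of a 29-gene G2/M list, 90 of 172 control cDC1 (52.3%, 44.6 to 60.0), 127 of 276 in DU101 (46.0%, 40.0 to 52.1) and 65 of 140 in DU102 (46.4%, 38.0 to 55.0) were counted. After thinning to 2000 UMIs the shares were 22.1%, 21.7% and 20%, and 40, 63 and 47 cells lay near the threshold with 2 to 4 UMIs. In the T cell gate, at lower depth, 24.8%, 19.7% and 25.6% were counted before thinning, and in pDC 6.5%, 6.10% and 12.4%. After thinning of the cells deep enough the T cell shares were 12.0%, 10.3% and 12.5%. The cDC2 gate lay nearer to cDC1, at 42.4%, 30.1% and 28.4% before thinning and 20.3%, 16.9% and 13.6% after. In cDC1 Mki67, a proliferation marker, was at 184, 142 and 143 CPM. On cells with Y-linked RNA alone its order turned, at 86.2, 158 and 147 CPM, 1.83-fold (1.25 to 2.79) for DU101 and 1.71-fold (1.16 to 2.61) for DU102 over control. The median log2 ratio of the G2/M list went from -0.10 to 1.58 in DU101 and from -0.23 to 1.36 in DU102, and that of the S phase list from -0.18 to 1.15 in both. The share of cells counted as dividing was nevertheless level among cDC1 with Y-linked RNA alone. It was 47.6% in the control, 48.1% in DU101 and 47.8% in DU102, so a higher share of dividing cells is not read from these ratios. Of the G2/M list 0 of 29 members were higher and 2 lower in either treated library against the whole control, and of the S phase list 0 of 23 were higher and 1 and 3 lower. Over all measured genes 2.25% were higher and 8.25% lower in DU101, and 2.36% and 5.24% in DU102.

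Across 5697 genes measured in every library, 441 were higher and 95 lower in dividing than in other cDC1 in 3 of 3 libraries, by intervals of counting error. The dividing cells were chosen on cycle genes, so only genes that were lower are described. Itgae was at 134 CPM in dividing and 189 in other cells of the control, at 89.9 and 120 in DU101 and at 129 and 215 in DU102. Dnase1l3, a secreted nuclease that degrades DNA of dead cells, was at 70.3 and 143, 99.9 and 229, and 58.6 and 199 CPM. Hfe, an MHC-like regulator of iron uptake, was at 59.8 and 154, 42.9 and 94.5, and 75.3 and 147. Cd74 was at 12084 and 14463, 12471 and 15776, and 12576 and 15973. These genes had the same direction in each library. Median UMIs were 20437.5, 18243 and 19159 in dividing against 14615, 13148 and 14965 in other cells, and the part of this depth in the result was not tested.

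Some smaller lists held few differing members, to be read against the 2.25% higher and 8.25% lower of all measured genes in DU101 over control and the 2.36% and 5.24% in DU102 over control. Of 8 glucocorticoid response genes 4 were lower in DU101 and 2 in DU102 than in the control, with Fkbp5, a co-chaperone of the receptor, at 64.1, 34.5 and 30.5 CPM. Of 21 lysosomal genes 3 were lower in both, with Ctsl at 31.3, 12.2 and 11.9 CPM. Pattern recognition gave Zbp1, a sensor of Z-form nucleic acid, at 32.8, 65.6 and 31.7 CPM, as the 1 of 16 higher in DU101 over control. Of dead cell uptake genes Dnase1l3 was higher in DU101 (97.3, 159 and 123 CPM). Receptors and adhesion genes gave 1 of 15 higher and 2 lower in DU101 over control, and 3 of 14 higher in DU102 over DU101, among them Cxcr3 at 39.1, 30 and 46.6 CPM. In DU102 over DU101 6.17% of all measured genes were higher. In cytokine receptors and suppressors of cytokine signalling Socs1 was higher than the control in both (5.32, 14.0 and 19.4 CPM) and Il4ra lower (18.8, 9.92 and 11.5). Socs1 rests on 17, 62 and 47 UMIs, with 70.2% of those of DU102 in 5 cells. The glycolysis list gave Ndrg1 lower in both (26.6, 16.2 and 17.3 CPM), and the maturation list gave 2 of 15 higher and 1 lower in DU101 over control.

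Among the genes that stood furthest from 1 by the near end of the interval were several of granule precursors and neutrophils. Elane, neutrophil elastase, had 1283 of its 1290 control UMIs in 1 cDC1, Mpo 511 of 518 and Ctsg 528 of 533. Car1, a red cell precursor gene, had 197 UMIs in 1 control cell. Wfdc21, with 76, 706 and 452 UMIs, had 85.5%, 82.7% and 93.6% of them in 5 cells. These ranks therefore rest on single cells that passed the rule.

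Several other ranked genes were spread more widely. Ece1, a peptidase, was at 231, 122 and 269 CPM and Sult1a1, a sulfotransferase, at 69.1, 28.0 and 63.5, both lowest in DU101. H1f0, a linker histone, was at 27.5, 28.6 and 62.2 CPM, Cirbp, the cold-inducible RNA-binding protein, at 32.5, 32.0 and 59.3, and Srsf5, a splicing factor, at 115, 117 and 182, all highest in DU102. Against control cells with Y-linked RNA alone Cirbp was at -0.52 and Srsf5 at -0.15 on the log2 scale. Cdkn1a, the cell cycle inhibitor p21, was at 27.2, 70.1 and 18.5 CPM and highest in DU101. It was not widely spread, with 48.3%, 53.1% and 57.8% of its UMIs in 5 cells. Phlda1 was at 52.5, 36.1 and 13.2 CPM, with 32.7%, 32.5% and 71.9% of its UMIs in 5 cells. Lars2 stood at 547, 199 and 417 CPM.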

How the data were processed

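Gene by cell matrices of raw UMI counts were deposited by the authors for 3 libraries, made with Cell Ranger (version 6.0.0 per the file headers, 2.1.1 with mm10 per the submitters' processing notes). Kept were barcodes of 200 or more genes whose mitochondrial UMIs made up 10% or less. cDC1 and 5 comparison gates were set by raw UMIs, and Scrublet called 0, 7 and 2 doublets among cDC1, which were kept. UMIs of a gate were summed and given as CPM. Ratios carry exact Poisson intervals, shares Clopper-Pearson intervals, a 0 is read with a floor of 3 counts, and intervals cover counting error only. Libraries held 86320692 UMIs in the control's 10419 filtered cells and 103916221 in 14257 of DU101 and 92952487 in 11710 of DU102. Named genes were the gate genes, members of the described lists, the 10 highest and 10 lowest ranked in each comparison by the interval end nearest 1, and the 15 genes with the highest ratio over the other gates. The members and the lists were chosen with earlier results of these data known. Alternatives were run on gate, filters, scaling, depth and sex RNA. Intervals measure these libraries and not the treatments. The script was tested on simulated data. Python 3.11.15, scipy 1.17.1 and scanpy 1.11.5 were used.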

Additional observations from a re-analysis of the deposited data

How the results depend on the processing

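No paired analysis was possible because each group holds 1 library, and for the same reason no replicate was left out. Of 2732 values of 164 named genes under the alternatives, 58 turned direction. The cause of each change was not tested, except where fewer cells or genes follow from the alternative itself.

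Restricting every library to cells that had Y-linked RNA without Xist left 21 control cells and turned 18 values of named genes, against 7 on the thinned gate. The cDC1 share became 2.40-fold for DU101 over control and 1.62-fold for DU102 over control, genes higher and lower became 563 and 390 in the former and 417 and 213 in the latter, type I interferon members higher in DU101 became 6 and heat shock and early members lower in DU102 became 3. In DU101 over control the log2 ratios became 4.52 for Ctsg, 4.48 for Elane, 5.03 for Mpo, 0.03 for Hist1h2ap, -0.13 for Ifi27l2a, 2.81 for Zeb2 and 1.15 for the S phase median. In DU102 over control they became -0.35 for Ifi27l2a, -0.52 for Cirbp, -0.15 for Srsf5, 3.84 for Ctsg, 0.58 for Dnaja1, 0.45 for Hsph1, 0.24 for Hspa8, 0.61 for Hsp90aa1, 0.47 for Hspd1, 0.93 for Chordc1, 0.64 for Ccl5 and 2.52 for Zeb2. The list medians there became 0.11 for heat shock and early genes, -0.22 for identity, -0.15 for co-stimulation, 1.36 for G2/M and 1.15 for S phase.

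Among the 3 conventional dendritic gates the cDC1 share became 1.34-fold for DU102 over control and 1.02-fold for DU102 over DU101. Median-of-ratios scaling gave 330 genes higher and 490 lower in DU101 over control. A minimum of 100 UMIs gave 114 higher and 330 lower in DU101 over control, 73 and 178 in DU102 over control, and 273 and 166 in DU102 over DU101, with fewer genes measured.

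Without the exclusions, genes higher in DU102 over DU101 became 836 and control cDC1 with G2/M RNA 42.6%. Without them Ctsg became 0.14, Mpo 0.10 and Cybb -0.57 in DU101 over control, and Car1 0.96 and Cybb -0.05 in DU102 over control. On the thinned gate genes lower became 376 in DU101 over control and 181 in DU102 over control, interferon members lower in DU102 over DU101 became 6, and cDC1 with G2/M RNA became 37.0% in the control and 37.2% in DU102. There Elane became 3.51, Hist1h2ap 0.49, Ccl5 -0.71, Ccl17 1.38 and Tcf4 0.65 in DU101 over control, the G2/M median 0.77 in DU102 over control, and Cxcl10 0.47 and Tnf 0.72 in DU102 over DU101. A gate of at least 3 UMIs turned Ccl17 to 1.21 in DU101 over control, leaving out Scrublet calls turned Chil3 to -0.07, and weighting each cell alike turned Mpo to 0.33.

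Without dividing cells, interferon members lower in DU102 over DU101 became 4 and the interferon gamma median 0.11, with Herc6 at 0.09 and Cxcl10 at 1.23. Cxcl10 became -0.92, Chil3 -1.12, Ctsg 2.60, Elane 2.85 and Iigp1 -2.68 in DU101 over control, and Chil3 -0.94, Ccl5 0.10 and Cybb -0.22 in DU102 over control.

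The following alternatives were chosen after seeing the data. Without cells with RNA of other types, genes lower in DU102 over control became 229. Ctsg became 2.71, Elane 2.98, Mpo 2.29 and Tcf4 0.04 in DU101 over control, and Ctsg 2.94, Ccl5 0.13 and Zeb2 0.08 in DU102 over control. Without the 3% of cells with most UMIs of each gene, Ctsg became 3.48, Elane 4.45 and Mpo 3.86 in DU101 over control, Cxcl10 -0.46 and Cybb -0.31 in DU102 over control, and interferon members lower in DU102 over DU101 became 7. Without the H2-Eb1-low cells of DU102, Chil3 became -0.33 and Serpinb1a -0.25 over the control, and Elane -2.56 over DU101.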

Other observations

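A few genes were chosen after their values were seen. Some endoplasmic reticulum genes were highest in the DU101 cDC1: Creld2 was at 37.8 CPM in the control, 81.4 in DU101 and 27.2 in DU102, Hspa5, the chaperone BiP, at 620, 880 and 506, and Manf at 232, 322 and 196. Other chaperones of that compartment were not, with Calr at 666, 642 and 571 and Canx at 195, 177 and 198. Rnaset2b, a ribonuclease, was at 40.7, 51.0 and 13.2 CPM and lowest in DU102. S1pr1, the receptor that guides exit from tissue, was at 16.6, 0.676 and 0.824 CPM, with all 53 control UMIs in 5 cells, 29 of them in 1.

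Within the DU102 cDC1, the 34 cells low in H2-Eb1 and the 104 others differed in further genes. Of 6068 genes measured, 274 were higher and 414 lower by size in the low cells. Hspa8 was at 1578 CPM in the low cells and 1713 in the others, Dnaja1 at 333 and 320, and Cxcl10 at 20.3 and 95.9. Of the Cxcl10 UMIs in the DU102 cDC1 94.1% were in 5 cells. S100a8, a neutrophil gene, was at 10680 and 1468 CPM, but 5 cells held 92.0% of its UMIs in the DU102 cDC1. Median depth was 15182.5 and 16317.5 UMIs. The cells were split on H2-Eb1, and these values describe the 2 sets with no test.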
